A study of Mus musculus with 2 samples.

Results

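Prox1, the transcription factor that defines lymphatic endothelium, and eGFP, the green fluorescent protein reporter of Prox1-GFP mice, were followed cell by cell in cells sorted from the afferent lymphatic vessels of submandibular lymph nodes. They are 2 of the 23521 genes listed in the tables and were taken by their row names, whatever their values. The aged group was 1 library pooled from 6 FVB/N Prox1-GFP mice of 93 weeks, and the adult group 1 library pooled from 6 FVB/N Prox1-GFP mice of 12 weeks. All mice of both groups carry the reporter, so no cell without the transgene was available as a control, and neither the extent of the reporter's promoter nor the gate of the cell sort is given in the sources used here. Cells were captured in droplets and 3′ ends of transcripts were counted as unique molecular identifiers (UMIs). With 1 library per age there is no test between ages, and every interval below is a 95% interval of counting error only, which leaves out differences between cells, mice and libraries.

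Prox1 is a homeodomain transcription factor that is switched on in a subset of embryonic vein cells and gives them lymphatic identity, and its continued expression keeps that identity in the adult. SOX18 and COUP-TFII (Nr2f2) act upstream of it, and VEGFR3 (Flt4), the receptor of the lymphatic growth factor VEGF-C, is among its best known targets. Outside lymphatic vessels it is known in lymphatic and venous valves and in specialised vessels with mixed venous and lymphatic features, and reporters driven by its promoter are used to find lymphatic vessels by fluorescence.

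The endogenous gene lies on chromosome 1, at chr1:190118035-190170714 on the minus strand (ENSMUSG00000010175, GRCm38, GENCODE vM21), and the antisense gene Prox1os overlaps its 5′ end at chr1:190170296-190217276 on the plus strand. The 250 bases before its most upstream RefSeq start, at 190170827 (chr1:190170828-190171077, minus strand, RefSeq, GRCm38.p6), are shown because this is the proximal part of the promoter that the reporter is named for, printed 5′ to 3′ with the matches of 2 core promoter motifs in capitals.

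Prox1 promoter: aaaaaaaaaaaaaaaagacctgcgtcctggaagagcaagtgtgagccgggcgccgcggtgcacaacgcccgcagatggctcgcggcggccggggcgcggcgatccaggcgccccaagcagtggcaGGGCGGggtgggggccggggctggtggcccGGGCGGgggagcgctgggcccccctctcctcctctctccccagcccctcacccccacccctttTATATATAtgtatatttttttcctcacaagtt

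The capitals mark 2 GC boxes (GGGCGG), 125 and 95 bases before the start, and a TATA-like run that begins 32 bases before it, made of 2 overlapping copies of TATATA, which reads the same on both strands. Of 32851 RefSeq promoter windows of this length, 32.7% hold GGGCGG and 5.25% hold TATATA on either strand. The window is 64.8% G and C, against a median of 52.4% over all windows, and holds 20 CpG dinucleotides, against a median of 6. The letters AGGTCA, a half-site of nuclear receptors, are held by 14.0% of all windows on either strand and are not in this one. The core of Sox factor sites, AACAAT, is held by 9.42% of the windows and is likewise not in this one. Nor is the short core of zinc finger sites bound by Gata2, GATAA, which 22.6% of the windows hold. The same 3 searches found no match in the 250 bases before the second RefSeq start of Prox1 (chr1:190169516-190169765), where GGGCGG occurs once.

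The aged table held 13969 cells and 128940414 UMIs, and the table of adult cells 90875406 UMIs in 7308 cells. Cells under 6977 of the adult barcodes (95.5%) were also in the aged table at a median of 0.506 times their adult depth. They were counted once, as adult, which left 6992 aged and 7308 adult cells with medians of 11663.5 and 12087.5 UMIs. The aged table gives no gene names, and the row read as Prox1 followed the adult Prox1 row best over the shared cells (r = 0.971, with eGFP next at 0.935), as the row read as eGFP followed adult eGFP (r = 0.974, with Prox1 next at 0.935). Classes were named from marker lists after a joint clustering that left out Prox1 and eGFP. Lymphatic endothelial-like cells showed all 9 lymphatic markers in both libraries, among them Flt4, Mmrn1, Reln and Lyve1.

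Both transcripts were among the most abundant of the lymphatic endothelial-like cells, and every one of these cells held both. eGFP ranked 2 and Prox1 ranked 3 of all genes in each library, behind Malat1, a nuclear noncoding RNA. Prox1 stood at 14004 CPM (UMIs per 1000000 UMIs of the class) in the 88 aged cells (13672 to 14343) and 14440 in the 274 adult cells (14261 to 14621). eGFP stood at 18032 CPM in the aged cells (17654 to 18415) and 16825 in the adult cells (16632 to 17020). Single cells differed far more than the libraries did: Prox1 ran over 1, 51 and 434 UMIs per aged cell (lowest, median, highest) and over 4, 56.5 and 520 per adult cell. The same 3 values for eGFP were 3, 64.5 and 541 in aged cells and 4, 79.5 and 647 in adult cells, so the ranges of the ages overlapped almost entirely. The share of cells with an eGFP UMI was 100% in both (95.9% to 100% for aged, 98.7% to 100% for adult, exact Clopper-Pearson intervals) and stayed at 100% after each cell was thinned to 3000 UMIs, which left out 7 aged and 22 adult cells.

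A class of blood endothelium with venous markers carried the next highest levels. Its cells had UMIs of Vwf, the von Willebrand factor, in 99.3% of aged and 99.5% of adult cells, of the leukocyte adhesion receptor Selp in 40.5% and 65.2%, and of the chemokine receptor Ackr1 in 72.3% and 77.2%. Of the 9 lymphatic markers, 4 were found in over 5% of them: Nts in 16.9% of aged and 16.3% of adult cells, Tbx1 in 14.9% and 16.6%, Flt4 in 9.80% and 15.5%, and Lyve1 in 11.5% and 7.61%. Reln, Mmrn1, Ccl21a, Sema3a and Cldn11 were each found in at most 2.36%. Prox1 stood at 2577 CPM in the 296 aged venous-like cells (2506 to 2649) and at 2378 in the 368 adult ones (2323 to 2434). eGFP stood at 3747 (3661 to 3834) and 2685 (2626 to 2745). Prox1 was found in 94.9% of the aged cells (91.8% to 97.1%) and in 84.2% of the adult cells (80.1% to 87.8%), and eGFP in 93.6% (90.2% to 96.1%) and 80.7% (76.3% to 84.6%). After thinning to 3000 UMIs these shares were 87.4% and 74.6% for Prox1, and 92.3% and 75.4% for eGFP. The venous-like level of Prox1 was thus well below that of lymphatic endothelial-like cells in each library, with intervals far apart, but the cells outnumbered the lymphatic ones. They held 40.9% of all Prox1 UMIs in the aged library and 21.1% in the adult one, against 54.7% and 74.9% held by lymphatic endothelial-like cells.

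**Figure D1:**
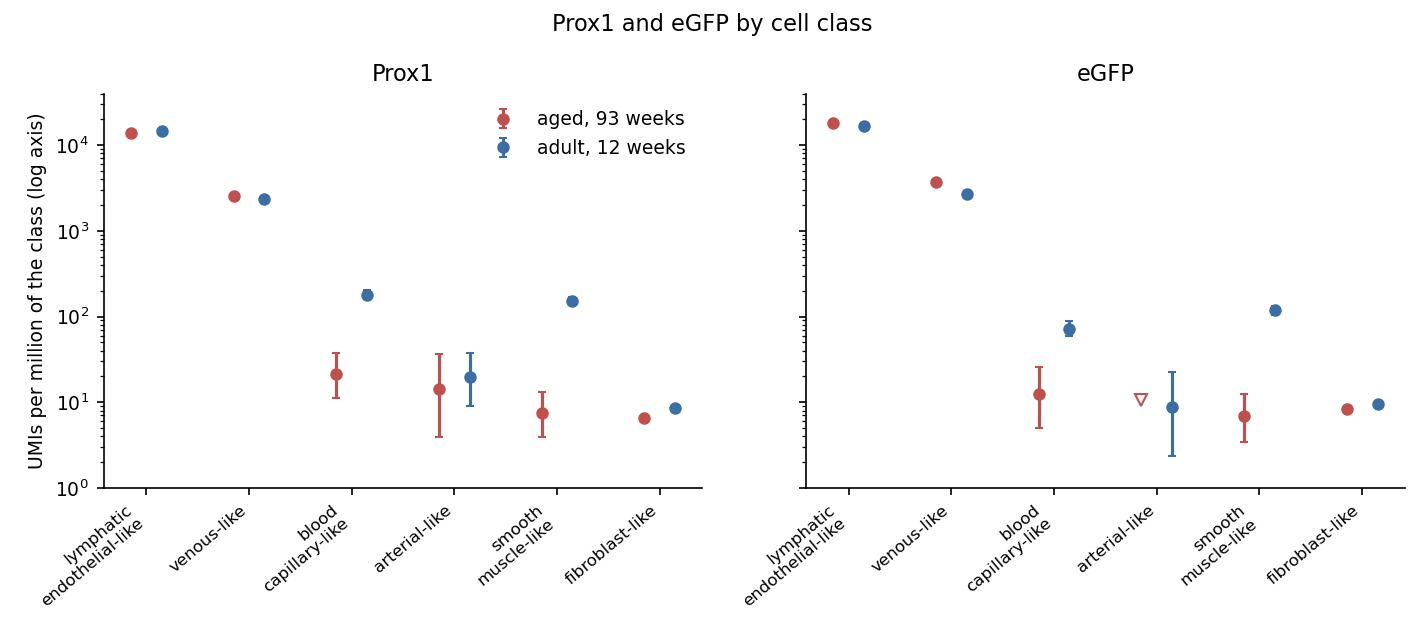
Prox1 (left) and eGFP (right) in CPM of each cell class, on a log axis, for the aged library (red, left of each pair) and the adult library (blue), with 95% Poisson intervals of the counts. The open triangle is the level that a count of 0 allows. Lymphatic endothelial-like cells stand highest, venous-like cells next, and the other classes much lower; 1 adult blood capillary-like cell and 3 adult smooth muscle-like cells hold most of the Prox1 UMIs of their classes.

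In venous-like cells the number of Prox1 UMIs spread widely. Of the aged cells 142 held 10 or more and 15 held none, and of the adult cells 155 held 10 or more and 58 held none. Of the lymphatic markers, Nts was found in 16.2% of aged and 17.4% of adult cells with 10 or more, against 6.67% and 6.90% of cells with none, and Flt4 in 9.86% and 18.1%, against 0% and 10.3%. Lyve1 was found in 3.52% and 4.52% of cells with 10 or more, against 13.3% and 10.3% of those with none. In the 139 aged and 155 adult cells with 1 to 9 Prox1 UMIs, Nts was found in 18.7% of each library. Flt4 was found there in 10.8% of aged and 14.8% of adult cells, and Lyve1 in 19.4% and 9.68%. Nts in both libraries, and Flt4 and Lyve1 in aged cells, were thus highest in this middle group. Reln, Mmrn1, Ccl21a, Sema3a and Cldn11 were each found in at most 4.23% of cells with 10 or more in either library. Tbx1, a transcription factor of lymphatic development, was found in 18.3% of the aged and 25.2% of the adult cells with 10 or more Prox1 UMIs, and in 0% and 10.3% of those with none. The venous markers did not move as 1 group. Vwf was found in 100% of cells with 10 or more Prox1 UMIs in both libraries. Selp, which marks activated and venular endothelium, was found in 33.8% of aged and 55.5% of adult cells with 10 or more Prox1 UMIs and in 53.3% and 68.97% of cells with none, and the related selectin gene Sele in 25.4% and 35.5%, against 40% and 51.7%. With 1 to 9 Prox1 UMIs, Selp was found in 46.0% of aged and 73.5% of adult cells, the adult share above both other groups. Lrg1 was found in 88.7% and 90.3% of cells with 10 or more, against 73.3% and 89.7% of cells with none, and Ackr1 in 73.2% and 74.2%, against 53.3% and 74.1%. Ephb4, a receptor of venous identity, went opposite ways in the libraries, at 43.7% and 48.4% of cells with 10 or more and 26.7% and 58.6% of cells with none. The group with no Prox1 UMI is small in the aged library (15 cells), and its depth was lower in both libraries (medians of 5262 and 6780 UMIs, against 7181 and 8655 in cells with 10 or more).

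Outside these 2 classes Prox1 and eGFP were at a low level. In fibroblast-like cells, the bulk of both libraries, Prox1 stood at 6.50 CPM in aged and 8.48 CPM in adult cells, and eGFP at 8.36 and 9.41 CPM. A single aged cell with 110 Prox1 UMIs held 24.6% of the aged Prox1 UMIs. It had 23917 UMIs in all, carried at least 2 lymphatic markers, and was the only aged cell that the doublet caller marked. Without cells of 10 or more the Prox1 levels were 4.91 and 7.47 CPM. Over fibroblast-like clusters of 50 or more cells, Prox1 ran between 3.28 and 21.4 CPM in the aged library (13 clusters, median 5.39) and between 3.59 and 25.7 in the adult one (15 clusters, median 8.91). Each maximum rests on 1 cell of 10 or more Prox1 UMIs, without which these clusters stood at 4.24 in aged and 6.04 in adult cells, while 1 adult cluster of 55 cells stood at 24.2 with no cell above 2 Prox1 UMIs. That cluster, led by Egln3 and Clca3a2, scored highest for epithelial markers (mean log2 fold of 5.67). Too few of these markers were found to name it so, and it was called fibroblast-like by its fibroblast markers. A Prox1 UMI was found in 5.31% of aged fibroblast-like cells (4.74% to 5.93%) and 8.27% of adult ones (7.59% to 8.995%), at median depths of 11933.5 and 13114 UMIs, above those of the endothelial classes. After thinning to 3000 UMIs the shares were 1.18% and 2.17%. The other classes are set beside this share, and the source of these Prox1 UMIs was not tested. Because of their number, fibroblast-like cells made up 40.4% of all aged and 43.9% of all adult cells with a Prox1 UMI, while they held 3.64% and 2.08% of the UMIs.

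Blood capillary-like cells, led by Rbp7 and Cd300lg, had a Prox1 UMI in 11.4% of 88 aged cells (5.59% to 19.9%) and 11.2% of 196 adult cells (7.17% to 16.5%). Each interval overlaps that of fibroblast-like cells of the same library at full depth. At 3000 UMIs per cell the shares were 8.24% (3.38% to 16.2%) and 5.79% (2.93% to 10.1%), above the fibroblast-like shares of 1.18% (0.908% to 1.496%) and 2.17% (1.82% to 2.57%) with intervals apart. The intervals of smooth muscle-like cells at this depth, 2.16% in aged (0.703% to 4.96%) and 5.52% in adult cells (3.25% to 8.69%), overlap those of blood capillary-like cells. The adult cluster of 55 cells led by Egln3 and Clca3a2, which scored highest for epithelial markers, stood at 9.62% (3.20% to 21.0%). eGFP at this depth was found in 4.71% of aged (1.30% to 11.6%) and 2.11% of adult blood capillary-like cells (0.577% to 5.30%), with intervals that overlap those of fibroblast-like cells (1.34% to 2.04% and 2.17% to 2.99%). Their adult level of 180 CPM of Prox1 rests on 1 cell that holds 88.9% of the UMIs, and the other adult cells stood at 20.1, close to the 21.4 of the aged cells. Arterial-like cells, led by the connexin gene Gja5 and Sema3g, held 4 Prox1 UMIs in 40 aged cells and 9 in 64 adult cells, or 14.2 and 19.6 CPM. eGFP was found in 0 of the 40 aged arterial-like cells, which by a floor of 3 counts allows a share of cells with an eGFP UMI of up to 7.5%, and in 3 of the 64 adult ones. In smooth muscle-like cells Prox1 stood at 7.51 CPM in aged and 152 CPM in adult cells. In the adult library 3 smooth muscle-like cells of 10 or more Prox1 UMIs held 91.4% of these UMIs, and all 3 also had UMIs of Vwf or Selp and of at least 2 endothelial markers. Without them the adult level was 13.2. The intervals of Prox1 for aged blood capillary-like, arterial-like and smooth muscle-like cells overlapped, so that their order is not set.

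In lymphatic endothelial-like and venous-like cells, each taken as a whole, the 2 transcripts went together cell by cell. Over lymphatic endothelial-like cells the logged levels correlated at r = 0.72 in aged cells (Spearman's rho = 0.72, 88 cells) and at r = 0.60 in adult cells (rho = 0.59, 274 cells). Over venous-like cells r was 0.73 in aged cells (rho = 0.75, 296 cells) and 0.86 in adult cells (rho = 0.87, 368 cells). These are descriptions over cells of 1 library each, and both transcripts of a cell share its depth. At an equal depth of 3000 UMIs r was 0.66 and 0.62 in aged and adult lymphatic endothelial-like cells, and 0.66 and 0.78 in aged and adult venous-like cells. Of blood capillary-like cells with a Prox1 UMI, 2 of 10 aged and 5 of 22 adult cells held eGFP, and of arterial-like ones 0 of 4 aged and 1 of 6 adult cells. In fibroblast-like cells r was 0.15 and 0.17, where counts are too sparse for a correlation to be read.

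**Figure D2:**
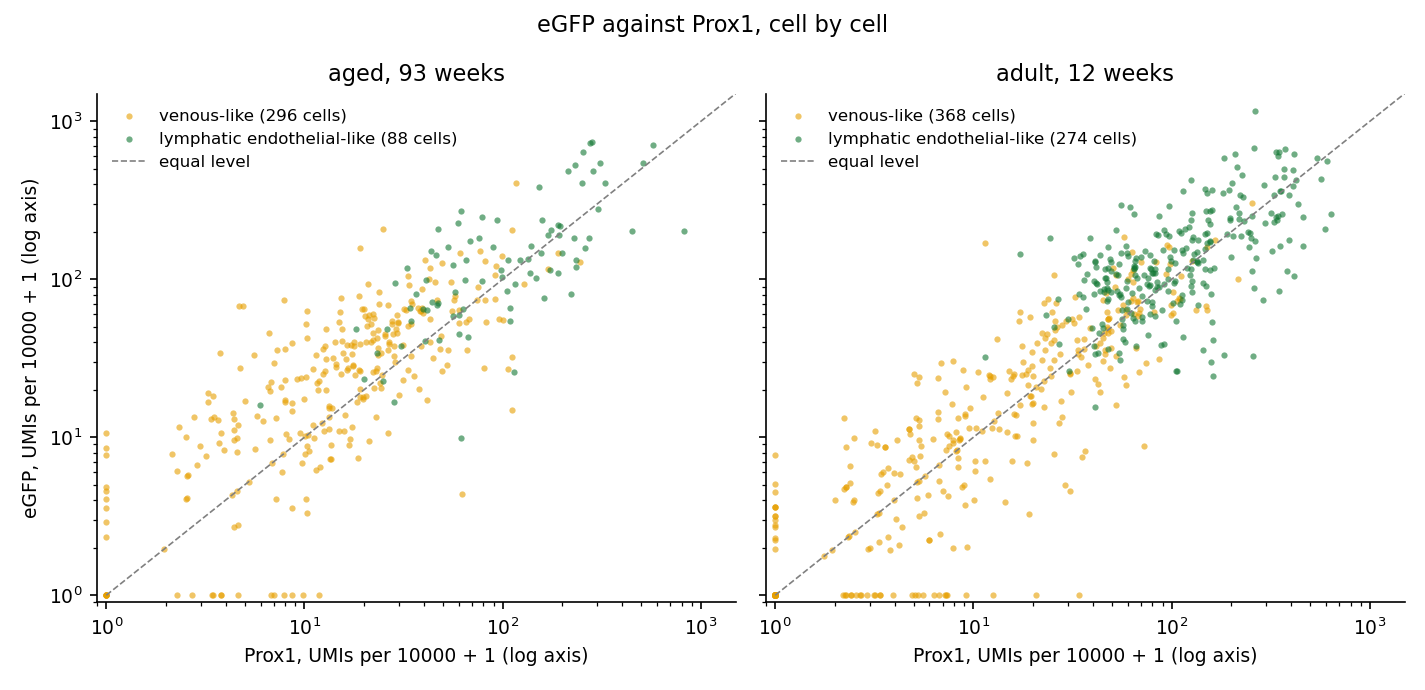
eGFP against Prox1 in single cells, as UMIs per 10000 of the cell plus 1 on log axes, in the aged library (left) and the adult library (right). Green points are lymphatic endothelial-like cells, orange points venous-like cells, and the dashed line marks equal levels. Lymphatic endothelial-like cells fill the top right in both libraries, and aged venous-like cells lie mostly above the line.

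A single Prox1 UMI went with a different chance of eGFP in each class. Among venous-like cells with exactly 1 Prox1 UMI, eGFP was found in 83.3% of 24 aged cells (62.6% to 95.3%) and 73.1% of 26 adult cells (52.2% to 88.4%). Among fibroblast-like cells with 1 Prox1 UMI it was found in 11.1% of 262 aged cells (7.54% to 15.5%) and 13.0% of 423 adult cells (9.95% to 16.6%). With no Prox1 UMI, 6.63% of aged and 9.32% of adult fibroblast-like cells held eGFP, and with 2 to 4 Prox1 UMIs 23.5% of 34 aged (10.7% to 41.2%) and 26.8% of 71 adult ones (16.9% to 38.6%) did. Fibroblast-like cells with 0, 1 and 2 to 4 Prox1 UMIs thus had eGFP shares in that order from low to high, each below that of venous-like cells with the same number. Their median depth went the same way, at 11838, 14121.5 and 16291 UMIs in aged and 12951, 15016 and 17192 in adult cells, and its part in these shares was not tested. From 10 Prox1 UMIs on, every aged venous-like and lymphatic endothelial-like cell held eGFP, and so did every adult one of these classes. Among venous-like cells without a Prox1 UMI, eGFP was found in 9 of 15 aged cells (32.3% to 83.7%) and in 14 of 58 adult cells (13.9% to 37.2%).

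**Figure D3:**
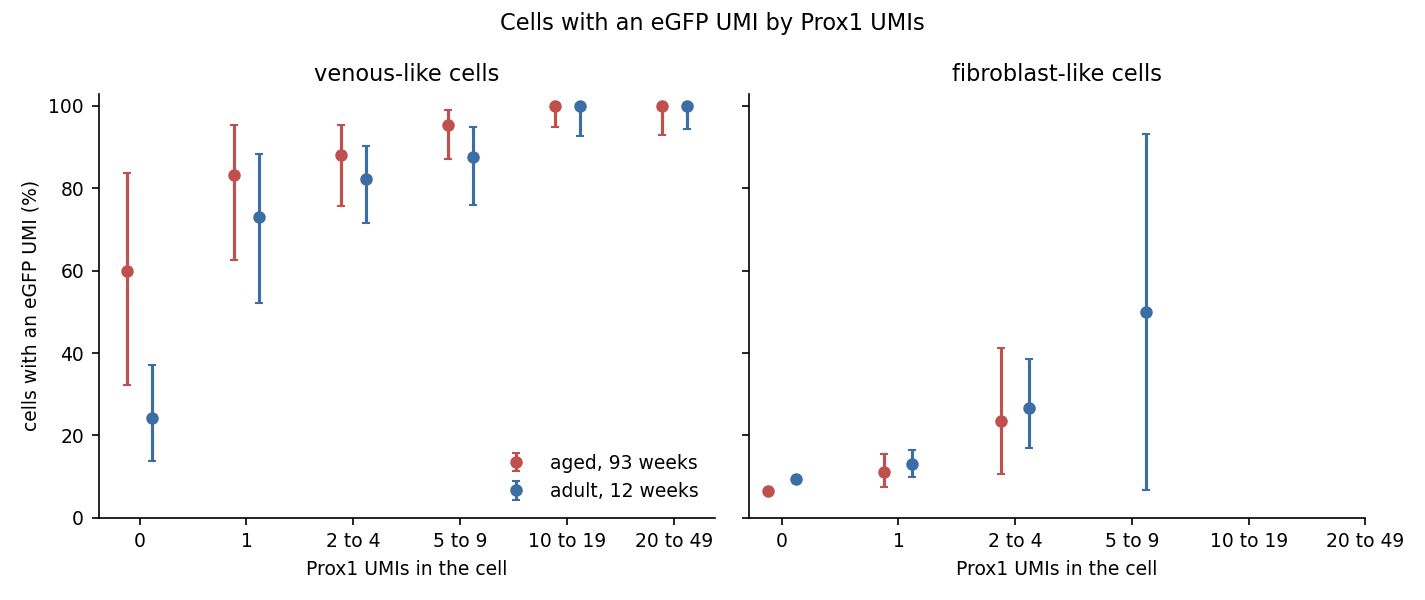
Share of cells with an eGFP UMI, in percent, by the number of Prox1 UMIs in the cell, for venous-like cells (left) and fibroblast-like cells (right), aged in red and adult in blue, with exact 95% intervals; groups under 4 cells are left out. Venous-like cells reach 100% from 10 Prox1 UMIs on, and fibroblast-like cells with 1 Prox1 UMI stand at 11.1% and 13.0%.

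eGFP was counted somewhat more often than Prox1 in the main classes. It was 129 eGFP UMIs per 100 Prox1 UMIs in aged lymphatic endothelial-like cells (125 to 133) and 117 in adult ones (115 to 119), and 145 in aged venous-like cells (140 to 151) and 113 in adult ones (109 to 117). Fibroblast-like cells stood at 129 (113 to 146) in the aged library and 111 (99.9 to 123) in the adult one, with intervals that reach over the value of the lymphatic endothelial-like cells of the same library. How completely each transcript is caught by the 3′ assay was not tested, so the ratio is compared between cells and not read as molecules of 1 per molecule of the other. From cell to cell it varied beyond counting error. Among cells with 10 or more UMIs of both together, 66.7% of aged and 68.2% of adult lymphatic endothelial-like cells had the 2 counts within 2-fold of each other. The spread of the eGFP share over these cells was 16.1 times the binomial variance in aged and 16.5 times in adult cells, and 5.89 and 5.36 times in venous-like cells. The counting intervals on any class level are narrower than this spread between cells.

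Lymphatic endothelial-like cells fell into 5 subclusters, and Prox1 differed between them more than between the ages. It was lowest in the subcluster led by Lyve1, the hyaluronan receptor of lymphatic capillaries, and Piezo2, a mechanosensitive channel, at 5046 CPM in 21 aged cells and 7279 in 102 adult cells. It was highest in the subcluster led by Spp1 and Coch, which encode the secreted proteins osteopontin and cochlin, at 23726 in 25 aged cells and 25401 in 71 adult cells. The subclusters led by Egfem1 and Cmah, by Tmem108 and Vegfc, and by Csf2rb lay between them in both libraries, at 11739 and 14628, 12882 and 11323, and 15544 and 14865 CPM in aged and adult cells. The last of these had 3 aged cells, against 31 adult ones. Its leading genes included Vwf and Olr1, which also led the venous-like cluster, and its place between these classes was not tested. eGFP was likewise lowest in the Lyve1 and Piezo2 subcluster (6582 in aged, 8696 in adult cells) and highest in the Spp1 and Coch subcluster (34897 and 30064). The subclusters were made from the same cells without Prox1 and eGFP, and their medians per cell kept this order at both ends for both transcripts in both libraries.

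**Figure D4:**
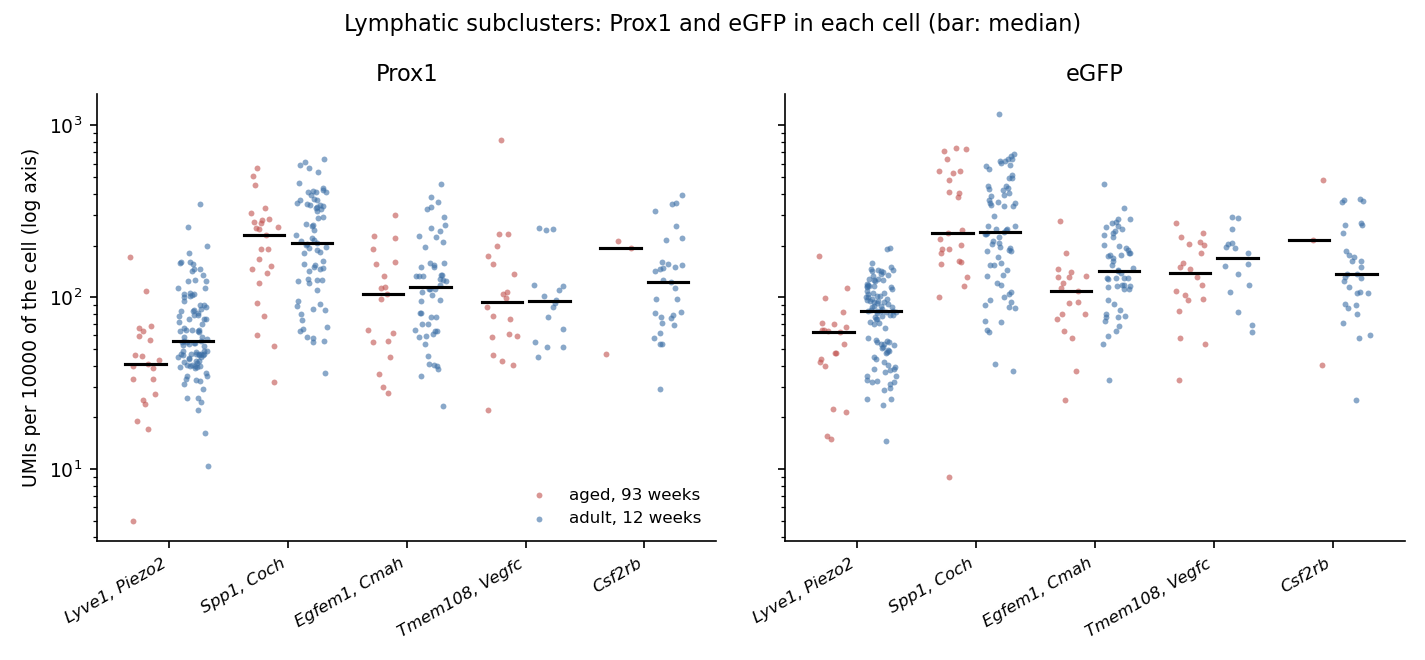
Prox1 (left) and eGFP (right) in each lymphatic endothelial-like cell, as UMIs per 10000 of the cell on a log axis, by subcluster, with aged cells (red) left of adult cells (blue) and bars at the medians. Cells of the Lyve1 and Piezo2 subcluster lie lowest and cells of the Spp1 and Coch subcluster highest; the Csf2rb subcluster holds 3 aged cells.

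The coupling of the 2 transcripts also differed by subcluster. It was similar at both ages in the Spp1 and Coch subcluster (r = 0.64 in 25 aged cells, 0.68 in 71 adult cells) and in the Egfem1 and Cmah subcluster (0.41 in 19 aged, 0.43 in 54 adult cells). In the Lyve1 and Piezo2 subcluster it was 0.73 over 21 aged cells and -0.06 over 102 adult cells, and at an equal depth of 3000 UMIs 0.55 over 16 and 0.05 over 89 cells. The adult cells of this subcluster all held both transcripts (Prox1 between 4 and 180 UMIs, eGFP between 4 and 153), yet their levels did not go together. The part of any single cell in the aged value was not tested. The mean of the r taken within each of the 3 lymphatic clusters of the first clustering was 0.58 for aged and 0.28 for adult cells.

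The ages differed little in lymphatic endothelial-like cells as a whole. Prox1 stood at a log2 ratio of aged over adult of -0.04 (-0.08 to -0.01) and eGFP at 0.10 (0.07 to 0.13), where 8.61% of the 5983 genes measured in these cells were higher in aged cells by at least 1.5-fold and 9.26% were lower by as much. Neither transcript was past 1.5-fold. The copies of adult cells in the aged table allow both ages to be read in 1 table: there, 244 copies of adult lymphatic endothelial-like cells gave 13860 CPM of Prox1 and 17227 CPM of eGFP, and aged over copies was 0.01 (-0.03 to 0.06) for Prox1 and 0.07 (0.03 to 0.10) for eGFP. The same 244 cells gave 124 eGFP UMIs per 100 Prox1 UMIs in the aged table and 116 in the adult table, a step between the tables in the same direction as the difference between the ages (129 in aged, 117 in adult cells) and smaller than it. Read in 1 table, the log2 difference of this ratio was 0.05 (-0.01 to 0.11).

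The small overall differences also depended on the subclusters, which the libraries held in unlike shares. In the Lyve1 and Piezo2 subcluster both transcripts were lower in aged cells, by a log2 ratio of -0.53 (-0.67 to -0.39) for Prox1 and -0.40 (-0.53 to -0.28) for eGFP. In the Spp1 and Coch subcluster Prox1 was at -0.10 (-0.16 to -0.04) and eGFP at 0.22 (0.16 to 0.27). The Egfem1 and Cmah subcluster had -0.32 (-0.40 to -0.23) for Prox1 and -0.54 (-0.63 to -0.46) for eGFP, and the Tmem108 and Vegfc subcluster 0.19 (0.09 to 0.29) and -0.10 (-0.19 to -0.01). These 4 rest on 19 to 25 aged cells each. The Csf2rb subcluster, with 3 aged cells, had 0.06 (-0.09 to 0.21) for Prox1 and 0.69 (0.57 to 0.81) for eGFP, past 1.5-fold. With the 3 clusters weighted equally eGFP was at -0.03, and without the cluster of 21 aged and 101 adult cells led by Ccl21a and Reln, called capillary-like, Prox1 was at -0.15 and eGFP near 0. By the sex called from Xist and Y-linked UMIs, Prox1 was at -0.18 in female and 0.15 in male cells, so no direction of either transcript holds for all lymphatic endothelial-like cells. Fibroblast markers summed to a median of 2.28 UMIs per 10000 in aged and 1.68 in adult lymphatic endothelial-like cells (highest 101 and 33.9), with all 7 markers found in each. Of 6 immune markers, Ptprc, Tyrobp, Cd52, Cd3e and Lyz2 were at 0 in both.

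In venous-like cells eGFP was higher in aged than in adult cells, by a log2 ratio of 0.48 (0.43 to 0.53), and Prox1 by 0.12 (0.06 to 0.17). A single aged cell held 428 of the 5037 aged Prox1 UMIs, where the highest adult cell held 171 of 7004. The part of that aged cell in the small Prox1 ratio was not tested. The Prox1 ratio was 0.05 in cells thinned to 3000 UMIs, -0.19 in cells called female and 0.28 in cells called male, while the eGFP ratio was 0.51, 0.23 and 0.62 in the same cells. Over all venous-like cells neither reached 1.5-fold, which 7.34% of the 7057 genes measured in these cells did upwards and 5.5% downwards. The median Prox1 count per cell was 9 in aged and 6 in adult cells, and the median eGFP count 15 in aged and 7 in adult cells, with the upper quartiles of Prox1 at 18.25 and 25. Aged over the 348 copies of adult venous-like cells in the aged table, the ratios were 0.43 (0.37 to 0.48) for eGFP and 0.15 (0.09 to 0.21) for Prox1. There, aged cells held 145 eGFP UMIs per 100 Prox1 UMIs and the copies 120, a log2 difference of 0.28 (0.19 to 0.36). In fibroblast-like cells the same reading gave 129 in aged cells and 133 in copies, with -0.05 (-0.33 to 0.23). Fibroblast markers summed to a median of 2.96 UMIs per 10000 in aged and 3.20 in adult venous-like cells, and their part in the result was not tested. With both transcripts among the clustering genes, the cluster led by Vwf held 300 aged and 400 adult cells, and its ratios were not taken. A pooled library cannot tell whether all 6 mice or a few carry the venous-like difference.

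**Figure D5:**
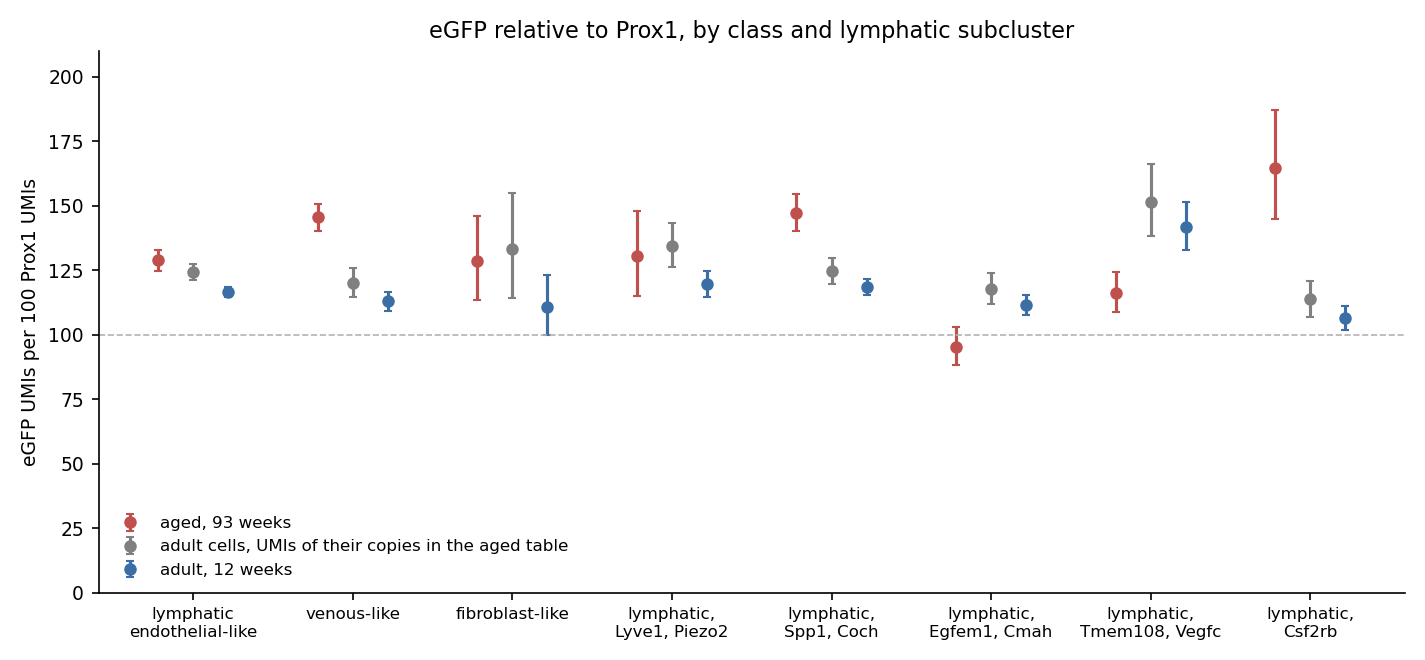
eGFP UMIs per 100 Prox1 UMIs in aged cells (red), in the copies of adult cells within the aged table (grey) and in adult cells of the adult table (blue), for 3 classes and the 5 lymphatic subclusters, with 95% counting intervals; the dashed line marks equal counts. Venous-like and Spp1 and Coch cells of the aged library stand above the grey points, and Egfem1 and Cmah and Tmem108 and Vegfc cells below them.

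Across all 27 clusters, the gene whose level was most like that of Prox1 was eGFP, and the reverse held as well (r = 0.98 of log2 levels, among 11523 genes with 500 or more UMIs). Next to both came Gpm6a, which encodes a neuronal membrane glycoprotein (r = 0.97 to Prox1 and 0.97 to eGFP). The 10 most like Prox1 also held Wdr17, Gm56664, 4921524J17Rik, Prox1os, Klhl4, Nqo1, Clca3a1 and Nts. The 10 most like eGFP held 7 of these beside Prox1, namely Gpm6a, Nts, Wdr17, Nqo1, Prox1os, 4921524J17Rik and Gm56664, and also Pla2g7 and Htr2b. These are correlations over clusters of the same 2 libraries, in which few clusters are high. Prox1os (r = 0.95 to Prox1) overlaps Prox1 by 419 bases on the other strand, 133 of them exonic in both, and whether reads were counted by strand is not given in the sources used here, so reads of the 2 genes in that stretch may not be told apart.

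Within lymphatic endothelial-like cells eGFP was again the most like Prox1 of 3566 genes found in 20% or more of the cells of both libraries. After it came Nfat5, the tonicity-responsive transcription factor (r = 0.49 in aged, 0.49 in adult cells), and Auts2 (0.44 and 0.52). Ppp1r12a, the targeting subunit of myosin phosphatase, followed at 0.47 and 0.44, and Pde4d, a cAMP phosphodiesterase, at 0.42 and 0.49. Ahsg, Arrdc3, Nr4a2, Nav2 and Cd24a made up the 10, with r between 0.37 and 0.46 in aged cells and between 0.39 and 0.53 in adult cells. The lowest r to Prox1 belonged to Lyve1 (-0.50 in aged, -0.53 in adult cells), the extracellular matrix gene Abi3bp (-0.50 and -0.49), the chemokine gene Ccl21a (-0.49 and -0.55), Mmrn1, which encodes multimerin (-0.45 and -0.57), and Cavin2, a caveola component (-0.45 and -0.49). Prox1 and the lymphatic markers Lyve1, Ccl21a and Mmrn1 thus ran opposite ways cell by cell in both libraries, and the subcluster led by Lyve1 was the one with the lowest Prox1. For eGFP, Prox1 came first, and Mmrn1, Abi3bp and Ccl21a were again among the 5 lowest (r between -0.63 and -0.53 in both libraries).

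In venous-like cells eGFP was likewise first, and other genes stood far below it, among them Kcnt2, a potassium channel gene (r = 0.29 in aged, 0.35 in adult cells), and Cd63, a tetraspanin gene (0.28 and 0.32). The lowest were Enpp6 (-0.36 and -0.31), Srgn (-0.29 and -0.32), Selp (-0.29 and -0.29), Fabp4 (-0.25 and -0.34) and Cst3 (-0.33 and -0.23), among 3975 genes. This ranking was made after the lymphatic one had been seen, by the same rule.

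Of 20 known regulators, partners and targets of Prox1, 14 were measured in lymphatic endothelial-like cells. Of these 0 were 1.5-fold or more higher in aged cells, where 8.61% of all measured genes were, and 5 were 1.5-fold or more lower, where 9.26% of all genes were. The median log2 ratio of the 14 was -0.43, beside 0.05 over all 5983 genes. These ratios are over the whole class, where the Lyve1 and Piezo2 subcluster held 21 of 88 aged and 102 of 274 adult cells. The Tmem108 and Vegfc subcluster held 20 aged and 16 adult cells, and the Csf2rb subcluster 3 aged and 31 adult cells. The part of such unlike shares in the ratios was not tested. The 5 were Sox18, an upstream activator, at 20.8 CPM in aged and 54.6 in adult cells (log2 -1.35, -2.50 to -0.45), Nr2f2, its partner in veins, at 264 and 475 (-0.85, -1.13 to -0.58), the adhesion molecule Icam1 at 135 and 384 (-1.50, -1.90 to -1.14), the Notch ligand Dll4 at 31.2 and 77.2 (-1.28, -2.19 to -0.53), and Prox1os at 204 and 309 (-0.60, -0.93 to -0.29). Sox18 rests on 10 UMIs in aged cells. Flt4 stood at 353 and 398 CPM (-0.17, -0.42 to 0.07), and Itga9, an integrin of lymphatic valves, at 490 and 369 (0.41, 0.19 to 0.63). Flt4, Pdpn and Nrp2 ran opposite to Prox1 over the single cells of the whole class (r of -0.39, -0.31 and -0.27 in aged, -0.47, -0.37 and -0.38 in adult cells), while Itga9 went with Prox1 (0.22 and 0.35).

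In venous-like cells 15 of the 20 were measured, 0 were higher and 3 were lower by 1.5-fold or more, where 7.34% and 5.5% of all measured genes were. The 3 were Foxc2, a transcription factor of valves, at 34.3 CPM in aged and 59.8 in adult cells (log2 -0.78, -1.23 to -0.39), Hhex at 37.3 and 58.1 (-0.62, -1.05 to -0.23) and Dll4 at 24.6 and 44.1 (-0.82, -1.35 to -0.36). The median of the 15 was -0.02, beside 0.06 over 7057 genes. The valve transcription factor gene Nfatc1 was at 378 and 297 (0.35, 0.20 to 0.49) and Nr2f2 at 378 and 540 (-0.52, -0.65 to -0.39). Flt4, at 18.4 and 25.1, was far below its level in lymphatic endothelial-like cells of the same library.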

How the data were processed

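Deposited was the natural log of 1 plus the UMIs of a gene per 10000 UMIs of its cell, as found from the values, and Seurat 5.0.3 is named in the submitters' processing notes. The notes name GRCm39 and mm10 without a role; no aligner, strand setting or cell filter is given in the sources used, so coordinates come from the reference annotation only. UMIs were recovered by dividing by each cell's smallest value (100% whole within 0.01). Levels are in CPM of the summed UMIs of a class, and log2 ratios add 1 CPM to each side.

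The 14300 cells were clustered jointly without Prox1 and eGFP: 2000 variable genes, 30 components, 15 neighbours, Leiden at a resolution of 1 (igraph 0.11.9, scikit-learn 1.9.0, numpy 2.4.6), and lymphatic endothelial-like cells again at 0.5. Clusters were named by their highest-scoring marker list (mean log2 fold of 1 or more, with 3 markers each found in 10% of cells), and those without one were fibroblast-like if 3 fibroblast markers were in 50% of cells. Clusters of 636 aged and 31 adult cells, and of 10 aged cells with epithelial markers, are not described. Myod1 and Myf5 were not found in the tables. Scrublet (scanpy 1.11.5) called 1 aged and 0 adult cells, too few to be of use, so no doublets were removed. Genes were measured with a UMI in 10% of cells in either library and 50 UMIs in all. Named were Prox1 and eGFP, the 10 genes most like each over clusters, the 10 most and 5 least like them over cells, by the smaller of both r, and the members of the fixed list past 1.5-fold; others were named after their values were seen. Some genes that the rule or a ranking would name are not reported here. Members and lists were chosen with earlier results of these data known. Ratios and recovery were tested on simulated data.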

Additional observations from a re-analysis of the deposited data

Results flagged for a closer look

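The aged table also holds copies of adult cells, which none of the class comparisons count as aged. In the 244 copies of adult lymphatic endothelial-like cells, eGFP stood at 17227 CPM and Prox1 at 13860 CPM, where the same cells had 16803 and 14468 CPM in the adult table. No copy of these cells held more UMIs of either transcript in the aged than in the adult table.

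Cells called female and male by Xist and Y-linked UMIs moved opposite ways for Prox1 between the ages. In lymphatic endothelial-like cells the log2 ratio of aged over adult was -0.18 in female cells (39 aged, 140 adult) and 0.15 in male cells (35 aged, 96 adult). In venous-like cells it was -0.19 in female cells (119 aged, 155 adult) and 0.28 in male cells (120 aged, 143 adult). eGFP was not lower in aged cells of either sex in either class, with 0.02 and 0.23 in female and male lymphatic endothelial-like cells and 0.23 and 0.62 in venous-like cells. The number of mice of each sex is not given in the sources used here, cells of a pooled library are not replicates, and the difference between the sexes was not tested.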

How the results depend on the processing

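No paired analysis was possible because each age has 1 library. The planned run without doublets was not made, since the caller marked next to none. The share of lymphatic endothelial-like cells with an eGFP UMI was 100% in aged cells under every alternative run and 98.9% or more in adult cells. In these cells no result moved beyond its interval with clustering at a resolution of 2, with both transcripts among the clustering genes, without cells with a UMI of Pdgfra, Acta2 or Ptprc, or with 0 or 10 CPM added. With both transcripts among the clustering genes, however, 83 aged and 242 adult cells were called lymphatic endothelial-like, against 88 and 274. The cluster led by Vwf and Olr1 then held 300 aged and 400 adult cells, against 296 and 368. At a resolution of 2 the adult smooth muscle-like levels were 184 CPM for Prox1 and 145 CPM for eGFP, and the order of the classes was kept. In lymphatic endothelial-like cells the log2 ratio of Prox1 changed sign to 0.015 with the UMIs of the copies, 0.014 thinned to 3000 UMIs, 0.16 in cells chosen by markers and 0.15 in male cells, and was -0.18 in female cells. That of eGFP was 0.058 with all cells as deposited, 0.039 thinned, 0.044 as a mean over cells, 0.019 in female cells, 0.23 in male cells and, with changed sign, -0.031 with clusters weighted equally. Adult eGFP UMIs per 100 Prox1 UMIs were 124 with the UMIs of the copies, 123 thinned, 119.6 as a mean over cells, 108 in male cells and 123 with clusters weighted equally. The aged value was 111 in cells chosen by markers, 135 in female cells and 114 in male cells. The correlation was 0.85 in aged and 0.72 in adult cells chosen by markers, and 0.58 and 0.28 as the mean of the r within each cluster. The causes were not tested. Of 2 alternatives chosen after seeing the data, the one without the Csf2rb subcluster gave 0.050 for eGFP, and the one without the capillary-like cluster gave -0.15 for Prox1, 3.1e-04 for eGFP and an aged correlation of 0.60. In venous-like cells all alternatives were chosen after seeing the data: the Prox1 ratio changed sign to -0.19 in female cells, and the eGFP ratio lay between 0.23 and 0.62. No other clustering was among these alternatives, so how far the venous-like ratios depend on the clustering was not tested. Depth limits the classes with few UMIs: the 4 aged and 9 adult Prox1 UMIs of arterial-like cells show no difference at this depth.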
